A study of Mus musculus with 3 samples.

Results

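Homeobox transcription factors were examined in wild-type mouse retina on postnatal day 10, when its cell types have been born and photoreceptors are still maturing. They were taken as the probe sets whose single gene symbol on the platform begins with a homeobox family name, such as Hoxa to Hoxd, Pax, Lhx, Pou, Meis, Pbx, Nkx, Dlx, Irx, Prox, Onecut or Cux, or is Rax, Isl1 or Isl2. This gave 125 of 12422 non-control probe sets, which stand for 103 of 8251 named genes. The symbols also brought in 4 genes, with 7 probe sets, that do not encode homeobox transcription factors: the 3 opposite-strand RNAs Dlx1as, Dlx6os2 and Hoxa11os, and the coactivator Pou2af1. None of the 7 exceeded background in any pool.

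The 3 samples form a single group, so no conditions were compared. Each was a pool of neural retinas from 3 to 4 mice of a mixed 129/SvEv and C57BL/6 background, wild-type littermates of Rp1-/- mice, taken in the early afternoon and hybridised to an Affymetrix U74Av2 array. Pools 2 and 3 carry Rp1 in their titles, but their descriptions call them wild type. Pool numbers are names given in accession order. Nothing says whether the pools shared mice, so the spread between them may be partly technical.

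A homeobox gene encodes a protein with a homeodomain, a helical fold that binds short DNA sites rich in A and T. In the eye, Pax6, Rax and Six3 belong to the network that sets up the eye field, and other members later mark single neuron classes. Isl1 is made by ganglion cells, cholinergic amacrine cells and ON bipolar cells, and Prox1 by horizontal cells and AII amacrine cells. Hox genes pattern the body axis behind the midbrain and are not known for a role in the retina.

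A probe set was taken as above background on an array when its signal exceeded a limit, the 90th percentile on that array of 91 probe sets, which stand for 71 genes known from tissues other than retina. The limit was 398.9 on the array of pool 1, 496.2 on that of pool 2 and 323.3 on that of pool 3. A set below it is not above background, which is not the same as silent. Retina was represented as labelled, since all 9 measured retinal identity genes exceeded the limit on all arrays. Of 7 measured lens genes, 5 did so on all arrays and the other 2 on some, and of 7 pigment epithelium genes 2 did so on some arrays and 5 on none. Probe sets differ in how strongly they bind, so signals are compared between pools and not between genes.

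Most homeobox probe sets were not above background at this age. Only 11 of 125 (8.80%) exceeded the limit on all 3 arrays, where 29.2% of all non-control sets did. A further 101 of 125 (80.8%) exceeded it on no array, against 55.1% of all sets. These shares describe the arrays and were not tested. By pool, 16, 13 and 22 homeobox sets lay above the limit, or 12.8%, 10.4% and 17.6%. The shares of all sets were 37.0%, 31.4% and 42.2%, also highest in pool 3, whose limit was lowest. The 101 sets had mean signals from 12.2 to 315.1 with a median of 77.1, whereas the 11 had means from 610.3 to 1793.1.

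Counted by each gene's best probe set, 9 of 103 genes exceeded the limit on all arrays: Pax6, Rax, Six3, Isl1, Pbx3, Cux1, Pou6f1, Hoxa4 and Hoxb8. Another 5, Prox1, Lhx3, Msx1, Pax4 and Six2, did so on 2 arrays, 7 on 1 array and 82 on none. Of all 8251 named genes, 682 did so on 2 arrays and 758 on 1. Over the 8251 named genes, 35.9% exceeded it on all arrays and 46.6% on none. Of the 71 genes of other tissues that set the limit, 6 exceeded it on all arrays, 8 on some and 57 on none. Because the limit was set from these same genes, some must exceed it on each array. These counts are therefore no measured error rate. Exceeding the limit is weak evidence by itself that a gene is expressed. With plain probe sets only, the limits were 288.1, 327.3 and 298.8. Prox1, Lhx3, Msx1, Pax4, Six2 and Pbx2 then exceeded the limit on all arrays as well. The plain set of Hoxa4 was below it throughout, and Hoxb8 has no plain set.

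**Figure D1:**
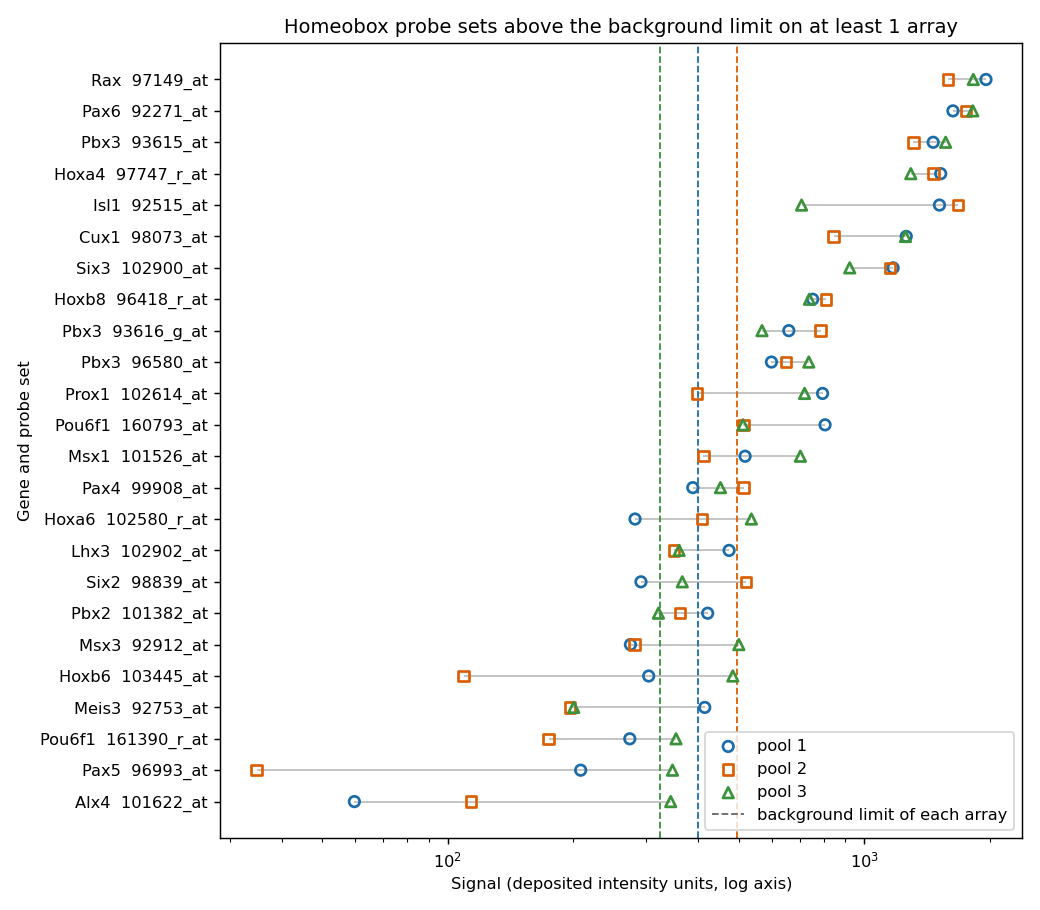
Signal in each pool (horizontal log axis, deposited intensity units) of the 24 homeobox probe sets above the background limit on at least 1 array. Dashed lines are the limits of the 3 arrays. The pools of Pax6 and Rax lie close together, whereas pool 3 of Isl1 and pool 2 of Prox1 lie apart from the other pools.

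The eye-field genes Pax6, Rax and Six3 each lay above the limit in all 3 pools, which differed by at most 1.27-fold in their brightest sets. Pax6, the paired-domain and homeodomain factor needed for eye formation and later for amacrine cells, read 1633.4, 1757.0 and 1823.1 in pools 1, 2 and 3. Its mean was 1738 ± 96.3 (SD, n = 3). Its range was 0.16 on the log2 scale, or 1.12-fold, and 7.75% of the 4530 sets above the limit on average had a smaller one.

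Rax, required for the optic vesicle and later found in photoreceptors and Müller glia, read 1960.7, 1590.8 and 1827.9. Its range was 1.23-fold. No pool stands far apart, and pool 2 was the lowest.

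Six3, a regulator of forebrain and eye field, has 2 probe sets that disagree in level. The first, 102900_at, read 1173.3, 1153.4 and 923.1, with a mean of 1083 ± 139 (SD, n = 3). The second, 102901_at, read 10.2, 38.1 and 19.3 and lay below the limit in each pool. In the first set, whose range was 1.27-fold, pools 1 and 2 were nearly level and pool 3 was the lowest.

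Of 8 measured eye-field and progenitor genes, 3 exceeded the limit on all arrays, 1 on some and 4 on none, shares close to the 35.9% and 46.6% of all genes. Six2, Pax2 and Six6 are named after their values were seen. Six2, better known from kidney progenitors, read 291.1, 520.0 and 365.8 and exceeded it in pools 2 and 3. Pax2, which marks the optic stalk and optic nerve head, read 217.1, 214.1 and 277.7. Six6, a partner of Six3 in the developing eye, read 19.0, 69.6 and 19.9, and neither Pax2 nor Six6 was above background. Lhx2 was not analysed here.

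The 250 bases before the annotated start of Isl1, Six3 and Pax6 are shown as examples of the DNA that precedes members above the limit. They were picked after looking: 8 patterns were searched in 9 members, of which 7 had a window, and these 3 genes are the ones whose windows held 1 of the 3 motifs kept here. Nothing is drawn from the choice. The sequences come from RefSeq, build GRCm38.p6, read 5′ to 3′ on the gene's strand. Pax6 has 2 windows. Capitals mark matches on either strand to TAATTA, a site preferred by many homeodomains, TAATCC, the site of the Otx and Crx type, and TGACAG, the site of the Meis type. The windows are chr13:116309689-116309938 on the minus strand for Isl1, chr17:85620584-85620833 on the plus strand for Six3, and chr2:105668646-105668895 and chr2:105682213-105682462 on the plus strand for Pax6.
Isl1: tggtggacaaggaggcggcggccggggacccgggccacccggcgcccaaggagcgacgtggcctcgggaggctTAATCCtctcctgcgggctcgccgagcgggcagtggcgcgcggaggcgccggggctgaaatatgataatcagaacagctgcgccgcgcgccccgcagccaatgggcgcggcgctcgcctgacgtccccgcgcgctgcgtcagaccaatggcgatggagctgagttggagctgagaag
Six3: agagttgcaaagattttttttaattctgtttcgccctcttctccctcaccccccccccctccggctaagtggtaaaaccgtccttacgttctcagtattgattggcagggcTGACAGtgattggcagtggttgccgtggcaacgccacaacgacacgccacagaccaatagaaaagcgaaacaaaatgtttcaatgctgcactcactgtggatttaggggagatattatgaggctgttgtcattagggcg
Pax6 window 1: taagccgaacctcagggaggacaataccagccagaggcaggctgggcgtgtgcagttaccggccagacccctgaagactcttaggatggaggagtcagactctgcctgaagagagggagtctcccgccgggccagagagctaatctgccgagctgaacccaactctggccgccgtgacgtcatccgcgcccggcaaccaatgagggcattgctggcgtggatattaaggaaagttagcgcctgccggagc
Pax6 window 2: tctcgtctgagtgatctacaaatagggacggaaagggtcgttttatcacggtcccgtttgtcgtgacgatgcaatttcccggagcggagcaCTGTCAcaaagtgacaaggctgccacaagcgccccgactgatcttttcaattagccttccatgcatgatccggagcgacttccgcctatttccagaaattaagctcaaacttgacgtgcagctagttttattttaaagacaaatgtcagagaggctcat

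Isl1 held TAATCC, beginning 177 bases before the start. Six3 held TGACAG, beginning 139 bases before it, and the second Pax6 window held the same motif on the other strand, beginning 159 bases before it. The first Pax6 window held none of the 3. RefSeq windows were found for 75 of the 103 genes, 87 windows in all. TAATTA was in 3 of these 87 (3.45%) and in 4.84% of all 32851 windows, TAATCC in 2 (2.30%) and in 6.25%, and TGACAG in 17 (19.5%) and in 15.9%. Member windows had a median GC content of 60.8%, against 52.4% over all windows. The matches are letters in a window and were not tested as binding sites.

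Isl1, the LIM-homeodomain gene of ganglion cells and other neurons, had the widest range of the 11 homeobox sets above the limit on all arrays. Isl1 read 1516.0, 1680.7 and 707.4 in pools 1, 2 and 3. Pool 3 was the lowest and pools 1 and 2 were close together, a range of 1.25 on the log2 scale or 2.38-fold. Of the sets above the limit on average, 94.5% had a smaller range. Without pool 3 the range of Isl1 was 0.15 on the log2 scale. In a bulk sample, fewer Isl1-positive cells and less RNA per cell cannot be told apart.

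Other values also differed between the pools, though not all of them set pool 3 apart. Actb control sets at the 3′ end of the transcript read 1.20, 1.44 and 1.69 times those at the 5′ end in pools 1, 2 and 3. For Gapdh the ratios were 0.947, 0.885 and 0.926, with pool 3 between the other pools. The summed signal of the 7 lens genes was 126741, 21389 and 288063, all 7 being highest in pool 3 and lowest in pool 2 by their brightest set, and that of the 9 retinal identity genes was 58969, 61793 and 76896. The part of RNA quality or of tissue make-up in the Isl1 values was not tested.

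Prox1, a prospero-type homeobox gene also made in lens fibres, was the other of the 15 members above the limit on average whose measured range passed 1 log2 unit. It read 794.4, 396.4 and 719.2. Pools 1 and 3 were close, and pool 2 was the lowest and not above background, so the range was at least 1.60-fold against the limit. As measured it was 2.00-fold, just past the threshold of 2-fold, and 0.99 on the log2 scale after quantile normalisation. Without pool 2 it was 0.14. Lens genes were lowest in pool 2 too, but highest in pool 3, where Prox1 was not, and their part in the Prox1 values was not tested.

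The other measured genes of the horizontal and amacrine cell list were not above background. Pax6 and Isl1, also tied to amacrine cells, were kept in other lists and exceeded the limit on all arrays. Lhx1, a LIM-homeodomain gene of horizontal cells, read 311.3, 326.8 and 175.4. Onecut1, needed for horizontal cells, read 155.3, 137.4 and 120.3. Of 5 measured genes of this list, 1 exceeded the limit on some arrays and 4 on none, where 46.6% of all genes did so on none. Lhx3, a LIM-homeodomain gene found in cone bipolar cells, read 473.8, 349.5 and 359.4 and exceeded it in pools 1 and 3. It stood alone in its list, since Otx2 and Vsx1 were not analysed here, nor were Pou4f1 and Pou4f2 of ganglion cells.

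The TALE class, whose homeodomains carry an extra loop of amino acids and which act as DNA-binding partners of other homeodomain proteins, had Pbx3 above background in every set. Pbx3 set 93615_at read 1464.4, 1312.0 and 1568.5, set 93616_g_at read 659.2, 785.8 and 568.4, and set 96580_at read 598.9, 649.4 and 736.1. Their ranges were 1.20-fold, 1.38-fold and 1.23-fold. The 3 sets did not share an order of pools, since pool 3 was highest in 2 of them and lowest in 93616_g_at.

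The other TALE genes of the list did not exceed the limit on all arrays. Pbx2 read 420.9, 361.5 and 320.6 and exceeded the limit in pool 1 alone. Meis1, a marker of eye progenitors, read 392.3, 294.1 and 258.8, and Meis2, found in amacrine cells, read 227.7, 243.8 and 156.2, both below the limit throughout. Meis3, chosen with its values known, read 414.2, 196.6 and 200.7 and was highest in pool 1.

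Cux1 and Pou6f1 also exceeded the limit on all arrays. Cux1, a cut-class homeobox gene expressed in many tissues, read 1261.6, 844.3 and 1256.0 with set 98073_at. Pools 1 and 3 were level and pool 2 was lower, a 1.49-fold range. A second Cux1 set, 104240_at, read 127.7, 180.0 and 99.8 and was below the limit. Its relative Cux2, a marker of upper cortical layers, read 35.2, 70.7 and 25.9.

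Pou6f1, a POU-domain gene of the nervous system and retina, read 805.5, 513.6 and 511.9 with set 160793_at, with pool 1 apart from the other pools. Its other 2 sets read 273.7, 174.8 and 353.3 for 161390_r_at and 235.5, 186.1 and 214.0 for 99891_at. The first of these exceeded the limit in pool 3 alone, and pool 2 was lowest in both. The 8 other POU-named genes, 10 sets, were above the limit on no array, as were 46.6% of all genes, with mean signals from 25.3 to 299.3. Among them Pou3f1 read 25.2, 37.5 and 46.5, Pou3f2 read 46.0, 47.2 and 165.8, and Pou3f3 read 32.2, 87.9 and 76.0, genes known from glia and cortical neurons.

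**Figure D2:**
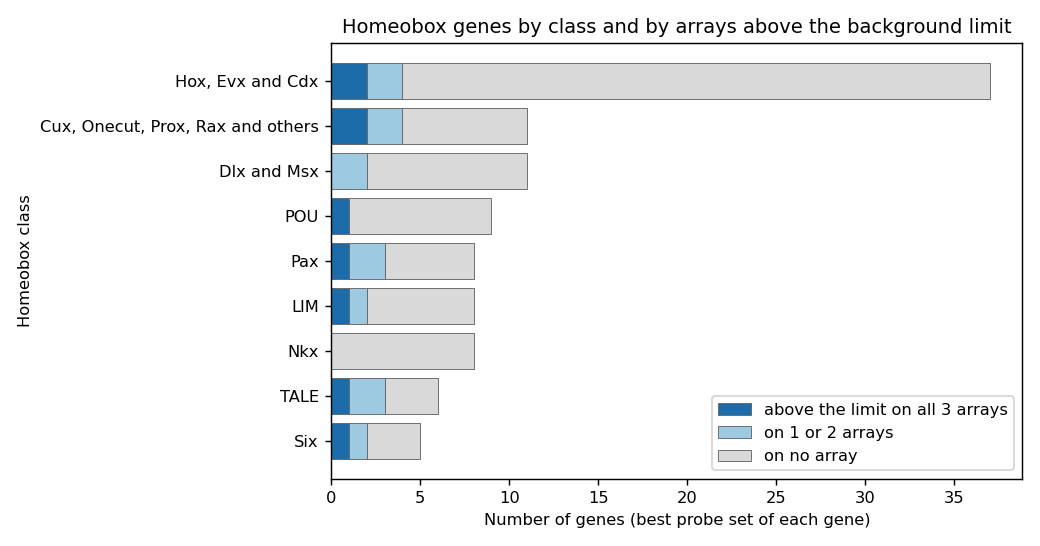
Number of homeobox genes in each class (bars, horizontal axis) by how many arrays had the gene's best probe set above the background limit. Of 37 Hox, Evx and Cdx genes 33 were above it on no array, as were all 8 Nkx genes.

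Axial and regional genes were nearly all below the limit. Of 32 Hoxa to Hoxd genes, including Hoxa11os, 28 exceeded it on no array, 2 on 1 array and 2 on all, where 46.6% of all genes did so on none and 35.9% on all. The 5 Hoxc and 7 Hoxd genes were below it on every array. None of the 8 Nkx genes, which pattern ventral brain, heart and gut, exceeded it on any array, as 46.6% of all genes did not, with means from 33.2 to 221.8. None of the 8 Dlx-named genes, which pattern ventral forebrain and jaw, did either, against the same 46.6%, with means from 13.3 to 168.0.

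The Hox signals above the limit came mainly from probe sets with the _r_at suffix, which marks sets for which some of the probe selection rules were dropped. Hoxa4 set 97747_r_at read 1526.5, 1466.1 and 1293.9, whereas the other 3 Hoxa4 sets were below the limit throughout, with 97745_at at 115.7, 65.1 and 42.0. Hoxb8 set 96418_r_at read 752.3, 810.4 and 738.6, and Hoxb8 set 96417_s_at read 7.8, 119.4 and 10.4. Within each gene the bright set and the other sets did not overlap in any pool.

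Of the 4 Hox _r_at sets, 3 exceeded the limit on at least 1 array, the third being the Hoxa6 set 102580_r_at at 281.7, 407.5 and 535.9. Of the 36 other Hox sets 1 did, that of Hoxb6, at 303.8, 109.2 and 483.8. Hoxa6 and Hoxb6 were singled out with their values known. Across the whole array 28.2% of _r_at sets and 46.2% of other sets exceeded the limit on at least 1 array. Among the genes of other tissues that set the limit, the _r_at sets of Ctrb1, Tnp1 and Lor exceeded it on all arrays. Those of Ins2 and Myh4 exceeded it on none. Whether the bright _r_at sets bind other transcripts was not tested, and their signals are not read as Hox expression here.

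**Figure D3:**
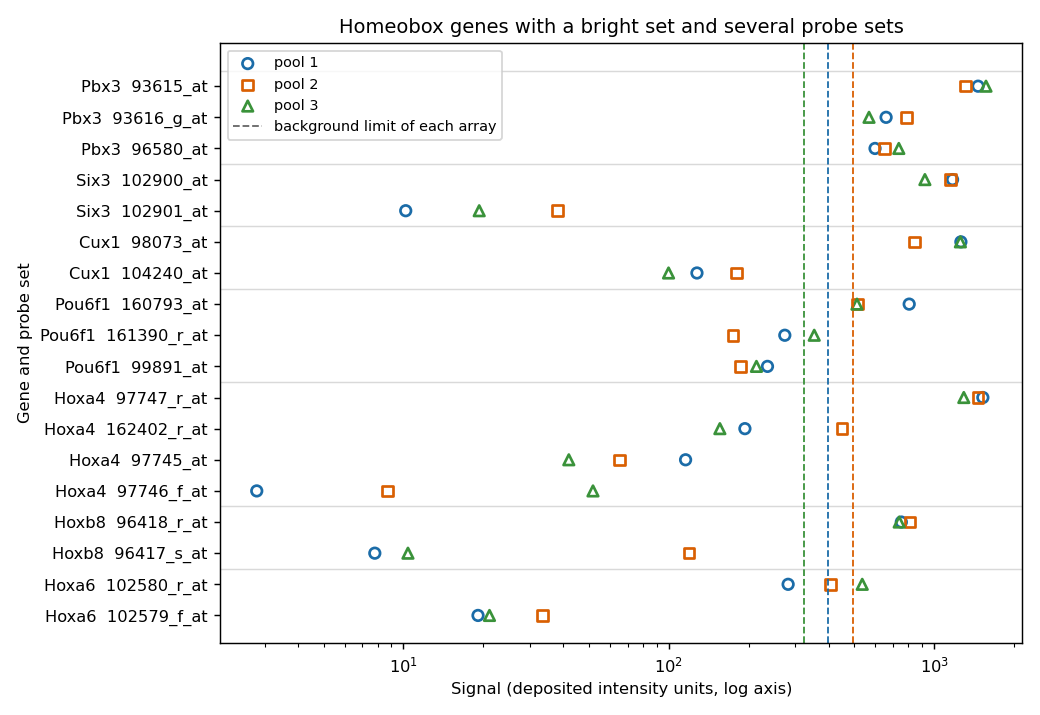
Signal in each pool (horizontal log axis, deposited intensity units) of every probe set of the 6 genes with several sets and a set above the limit on all arrays, and of Hoxa6. Dashed lines are the background limits. All 3 Pbx3 sets lie above the limits, whereas Six3, Cux1, Hoxa4 and Hoxb8 each have a bright set and sets below the limits. Pou6f1 has a bright set, a set below the limits and a set above the limit in pool 3 alone.

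A few other members exceeded the limit on some arrays and are named here after their values were seen. Msx1, a homeobox gene of ciliary margin and limb, read 517.7, 410.8 and 702.7, above the limit in pools 1 and 3. Pax4, a factor of pancreatic endocrine cells, read 387.7, 513.5 and 451.8, above it in pools 2 and 3. Alx4, Msx3 and 1 of the 2 Pax5 sets exceeded it in pool 3 alone, where the limit was lowest. Alx4 read 59.7, 113.8 and 343.1, Msx3 read 274.6, 280.6 and 500.1, and Pax5 read 208.6, 34.8 and 346.5.

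The spread between pools was compared with that of the whole array. The 15 homeobox sets above the limit on average had log2 signals with a median SD of 0.20 over the pools, against 0.26 for all 4530 such sets. With plain sets only, which leaves out the _r_at sets among others and also lowers the limits, the values were closer, at 0.243 and 0.271. With the limit at the 75th percentile this order turned, at 0.36 for 38 homeobox sets against 0.30 for all sets, and without pool 2 the values were level, at 0.210 and 0.209. A range over 1 log2 unit was reached by 2 of the 15, Isl1 and Prox1, against 10.9% of all such sets. Since pool 2 of Prox1 lay below its main limit, only Isl1 reached 2-fold with every pool above background. Under the lower limits of plain sets only, Prox1 was above background in every pool as well. The range of Prox1 stayed at 1.003 on the log2 scale there. No test was made of these differences.

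The median deviation from each set's own mean was 0.020 in pool 1, 0.017 in pool 2 and 0.033 in pool 3 on the log2 scale, against 0.023, 0.000 and -0.015 over all such sets. With plain sets only the member values were 0.124, -0.139 and 0.033, and with equal medians 0.076, -0.042 and 0.037, so the sign in pool 2 depended on the setting. The highest pool was pool 1 for 6 of the 15 sets, pool 2 for 4 and pool 3 for 5. Over all such sets the shares were 33.7%, 33.8% and 32.5%.

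The 110 homeobox sets below the limit on average were most often lowest in pool 1 and highest in pool 2. Their median SD of log2 signal was 0.70, against 0.64 for all 7892 such sets. Of them 57 were lowest in pool 1 (51.8%) and 58 were highest in pool 2 (52.7%). Of all sets below the limit on average, 42.7% were lowest in pool 1 and 44.5% highest in pool 2. The lower quartile of all signals was 72.7, 90.2 and 87.6 in pools 1, 2 and 3, so the arrays differed at their dim end. The order of pools among dim members is not described gene by gene.

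**Figure D4:**
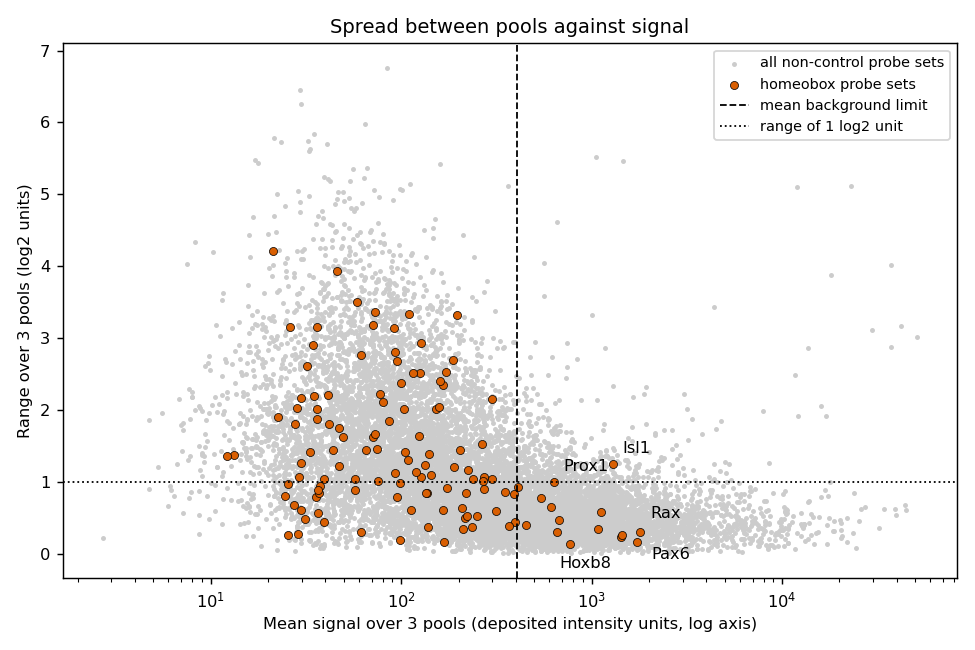
Range over the 3 pools (log2 units) against mean signal (log axis, deposited intensity units) for all non-control probe sets (grey) and the 125 homeobox sets (orange). To the right of the mean background limit, Isl1 and Prox1 are the only homeobox sets at or above a range of 1 log2 unit, and Pax6 and Hoxb8 lie near the bottom.

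Homeobox genes with other family names were read alongside. Of 30 measured, 7 exceeded the limit on all arrays, 4 on some and 19 on none, against 35.9% of all genes on all arrays and 46.6% on none. Crx, the homeodomain regulator of photoreceptor genes, read 8222.9, 7619.8 and 6475.1. Vax2, which patterns the ventral retina and was chosen with its values known, read 701.1, 635.2 and 644.2, a 1.10-fold range. Tgif2, a TALE repressor, read 481.6, 473.1 and 387.2 and exceeded the limit in pools 1 and 3. Hhex read 94.0, 158.3 and 155.1 and Tgif1 read 206.8, 59.7 and 157.9, both below it.

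Partners of homeodomain proteins were read too. Of 16 measured, 8 exceeded the limit on all arrays, 2 on some and 6 on none, beside the same 35.9% and 46.6%, in a list chosen with earlier results of these data known. The LIM-domain binding proteins that join LIM-homeodomain factors such as Isl1 into complexes were Ldb1, at 1084.6, 918.2 and 849.4, and Ldb2, at 706.1, 1062.5 and 927.4. Lmo1, a LIM-only protein that competes for those binders, read 1824.7, 968.1 and 882.5, a 2.07-fold range with pool 1 apart. Lmo2 read 372.0, 659.9 and 583.0 with its brighter set and exceeded the limit in pools 2 and 3. The other Lmo2 set read 310.0, 303.1 and 266.6 and was below the limit throughout. Eya1, a transcriptional partner of Six3 relatives also chosen with its values known, read 897.7, 612.8 and 752.3 with its brighter set, and 21.2, 242.8 and 220.3 with the other, which was below the limit.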

How the data were processed

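Total RNA of 3 pools of wild-type mouse retina was measured on Affymetrix U74Av2 arrays. The deposited values are a linear intensity per probe set, never negative, with no detection call. No source used here gives the authors' signal algorithm or scaling. In each array the trimmed mean, after removing 2% of the probe sets at each end, was 500.3, 500.2 and 500.3, and values were used as deposited. Of 12488 probe sets, 66 were controls, 10855 had 1 gene symbol, 396 had several and 1237 had none. Symbols came from GEO's platform annotation, and 3 sets naming a homeobox gene among several symbols were left out.

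Values below 1 were set to 1 before log2 (Python 3.11.15, pandas 2.3.3, NumPy 2.4.6). The background limit, the SD and the range were computed over the arrays, and the code was tested on simulated data. With 1 group no test was run, and 3 arrays limit the precision. Genes named are those above the limit on all arrays, those above it on average with a range over 1 log2 unit, and the first 3 measured of each role list. From the lists of other homeobox genes and partners they are the first 4 measured and any above the limit on average ranging over 1 log2 unit. The rule also covered lens, pigment epithelium and retina genes, which are given as counts and sums instead. Others are marked in the text. The members and lists were chosen with earlier results of these data known. The alternatives were other scalings, limits at the 75th and 95th percentile, a floor of 50, plain sets only and leaving out each pool. A comparison of homeodomain protein sequences was planned and not made, and promoter windows are shown instead.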

Additional observations from a re-analysis of the deposited data

How the results depend on the processing

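The 9 genes above the limit on all arrays stayed the same genes under both other scalings, with the floor of 50 and without pool 3. The scalings keep the ranking of sets within an array and the floor acts only on log2 values, so neither could change these genes. Leaving out a pool could add genes but not remove any. With the limit at the 75th percentile 24 probe sets of 22 genes exceeded it on all arrays (48.2% of all sets did), 12 of the 38 above it on average ranged over 1 log2 unit (18.6% of all such sets did), and the median SD of log2 signal was 0.36, above the 0.30 of all such sets. With the 95th percentile 9 sets of 8 genes did (23% of all sets), Pou6f1 being lost, and 111 exceeded it on no array (66.3% of all sets). With plain sets only it was 14 of 107 sets, 13 genes, against 39.5% of all plain sets. After quantile normalisation 1 set ranged over 1 log2 unit, Isl1, as Prox1 fell to 0.99. Of 20 named members, 13 had their order of pools unchanged after quantile normalisation, 14 with equal medians, and 11 under both. Isl1 was lowest in pool 3 and Prox1 in pool 2 under each scaling, whereas the lowest pool of Pax6 was pool 2 with equal medians. Leaving out a pool gave 11 to 14 sets and 9 to 12 genes above the limit on every remaining array (29.7% to 34.7% of all sets), 101 to 107 sets on none (55.6% to 61.4% of all sets) and a median SD of 0.15 to 0.21. In each case 1 set (from 1 to 1) then ranged over 1 log2 unit, Isl1 without pools 1 or 2 and Prox1 without pool 3. A range over 2 arrays cannot exceed that over 3, and 3.95% to 6.43% of all sets above the limit on average then ranged over 1. The order of 3 pools has no counterpart with 2. The arrays give no detection call, so signals near the limit carry little information on whether a gene is expressed. No paired analysis was possible because all samples belong to 1 group.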
